A study of Mus musculus with 24 samples.

Results

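Levels of 10 circadian clock genes were followed in the quadriceps of MRL/MpJ (MRL) and C57BL/6 (B6) mice. The genes were taken by symbol from the deposited expression matrix, which names 14159 genes, and all 10 were present: Arntl, Clock, Per1, Per2, Per3, Cry1, Cry2, Nr1d1, Nr1d2 and Dbp. The study left the muscle of each strain uninjured, or removed part of it (volumetric muscle loss, VML) and filled the defect with saline, with decellularized extracellular matrix (ECM) or with polyethylene powder (PE). Injured muscle was taken at day 21. The mice were female and aged 6 to 8 weeks when operated on. Both strains are inbred, and MRL mice are prone to autoimmune disease late in life. Each of the 8 groups of strain and treatment had 3 libraries of polyA-selected RNA, 24 in all, which the study describes as independent samples. Whole frozen quadriceps was used, so fewer cells of a type and less RNA per cell cannot be told apart. The hour of the day at which muscle was collected is not given in the sources used here. Differences between groups therefore cannot be told apart from differences in the hour of collection. Values below are log2 CPM (counts scaled to the size of the library) and differences between them, so a difference of 1 is a doubling.

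The clock of a cell is a loop of transcription that turns over about once a day. ARNTL (also called BMAL1) and CLOCK pair up, bind E-box sequences and switch on the Per and Cry genes, whose proteins then block the pair. The same pair drives Nr1d1 and Nr1d2, which encode the REV-ERB repressors that hold down Arntl, and Dbp, which encodes an activator that binds D-box sequences. In skeletal muscle, as in most tissues, Arntl therefore peaks at about the opposite time of day from Dbp and the Per genes.

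The annotation of GRCm39 places Dbp on chromosome 7 (45354512 to 45359627, plus strand) and Arntl, as Bmal1, on the same chromosome (112806152 to 112914735, plus strand). Per1 is on chromosome 11 (68986035 to 69002300, plus strand), Per2 on chromosome 1 (91343700 to 91387069, minus strand) and Per3 on chromosome 4 (151081373 to 151129140, minus strand). All are protein-coding. Nr1d1 overlaps the opposite-strand gene Thra by 3173 bases, Clock overlaps Tmem165 by 16020, Per3 overlaps Uts2 by 4729 and Dbp overlaps Sphk2 by 737. The quantification commands that the study prints hold no option for strand, so reads from exons shared in these stretches cannot be assigned with certainty. The overlaps are of whole gene spans with introns, while reads were matched to cDNA, so the shared exon sequence can be shorter.

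The sequences just upstream of the canonical transcript of each of the 3 Per genes are shown. They were chosen because these genes, with Dbp, were higher in uninjured MRL than B6 muscle. They also carry the sequence letters that the loop reads. Each runs 5′ to 3′ in the direction of the gene and starts 250 bases before the first base of the canonical transcript. Capitals mark the E-box CACGTG in Per1 and the D-box TTATGTAA in Per2 and Per3. The windows lie on GRCm39 at chr11:68989018-68989267 (plus strand), chr1:91387070-91387296 (minus strand) and chr4:151129141-151129390 (minus strand). That of Per1 lies within the span of the gene given above, which starts further upstream. That of Per2 stops 23 bases short of the start, where exons of its other transcripts begin.
Per1: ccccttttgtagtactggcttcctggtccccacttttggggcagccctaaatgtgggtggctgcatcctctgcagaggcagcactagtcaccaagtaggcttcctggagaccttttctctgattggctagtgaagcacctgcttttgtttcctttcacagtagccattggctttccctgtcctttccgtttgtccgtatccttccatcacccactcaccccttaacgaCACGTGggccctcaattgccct
Per2: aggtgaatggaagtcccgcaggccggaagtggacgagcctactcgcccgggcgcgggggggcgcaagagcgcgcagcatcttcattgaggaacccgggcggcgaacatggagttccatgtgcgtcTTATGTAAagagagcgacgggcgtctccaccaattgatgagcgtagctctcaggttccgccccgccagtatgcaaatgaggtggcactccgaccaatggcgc
Per3: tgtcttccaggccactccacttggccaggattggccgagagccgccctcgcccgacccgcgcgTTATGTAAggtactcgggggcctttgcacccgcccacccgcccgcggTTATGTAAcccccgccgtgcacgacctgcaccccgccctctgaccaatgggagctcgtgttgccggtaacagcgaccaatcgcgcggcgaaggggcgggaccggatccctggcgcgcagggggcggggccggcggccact

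The search covered both strands of the 250 bases upstream of the canonical transcripts of 13770 genes of the matrix that could be matched to the annotation. The E-box CACGTG, bound by ARNTL and CLOCK, was found in 2 of the 10 clock genes (Per1 and Cry1) and in 7.41% of all windows. A D-box, searched as TTATGTAA or TTATGCAA and bound by DBP, TEF and HLF, was found in 2 (Per2, and Per3 with 2 copies) and in 1.18% of all windows. The related E-box CACGTT was found in 3 (Cry1, Cry2 and Nr1d1) against 4.87%, and AGGTCA, the core letters of the element that REV-ERB proteins bind, in 2 (Nr1d2 and Dbp) against 11.8%. No match of one motif overlapped a match of another in these 10 windows. The matches describe sequence letters only.

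Uninjured muscle of the strains differed most in Dbp and in the Per genes. Dbp was at 3.25, 2.94 and 2.14 in uninjured B6 mice and at 5.43, 5.63 and 6.63 in uninjured MRL mice. The lowest MRL library was thus far above the highest B6 library. The difference was 3.12 (SE 0.54), or 8.70-fold, with a limma adjusted p = 0.00136. Per2, a repressor of the loop, was at 1.54, 1.27 and 2.35 in B6 and at 3.99, 3.75 and 3.99 in MRL mice. It was 2.19 higher in MRL mice (SE 0.38, limma adjusted p = 0.00153). Per1, a repressor that also responds quickly to light and hormones, was at 3.16, 4.58 and 5.29 in B6 and at 6.51, 6.14 and 5.92 in MRL mice. Its B6 libraries were spread widely, yet all were below the MRL libraries, and the difference was 1.85 (SE 0.39, limma adjusted p = 0.00899). Per3, the remaining Per gene, was at 4.19, 4.29 and 3.67 in B6 and at 5.37, 5.44 and 5.76 in MRL mice, a difference of 1.47 (SE 0.37, limma adjusted p = 0.033).

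Arntl, the activator, lay the other way. It was at 5.29, 5.08 and 5.68 in uninjured B6 mice and at 4.49, 4.64 and 4.63 in uninjured MRL mice. The groups did not overlap, and MRL mice were at -0.76 relative to B6 (SE 0.27), which missed the threshold over all genes (limma adjusted p = 0.211). Clock, its partner, was at 4.29 to 4.59 in B6 and 4.34 to 4.65 in MRL mice, so the groups overlapped. Nr1d1 was at 7.07 to 7.51 and 7.20 to 7.52, and these ranges overlapped as well.

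In uninjured muscle 4 of the 10 genes passed an adjusted p of 0.05, all of them higher in MRL mice, where 2.6% of all genes passed and 1.35% passed as higher. The libraries of the strains did not overlap for 7 of the 10 genes, against 21.8% of all genes. The median difference of the 10 genes was 0.64, and that of all genes was 0.00. Per1 lost its call when MRL replicate 1 was left out (1.68, limma adjusted p = 0.056) and when only the uninjured libraries were fitted (adjusted p = 0.165), and Per3 lost it when any 1 of the 6 libraries was left out (limma adjusted p from 0.0633 to 0.175). Dbp and Per2 kept theirs in all 6 fits, with differences of 2.75 to 3.36 and 1.96 to 2.50.

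**Figure D1:**
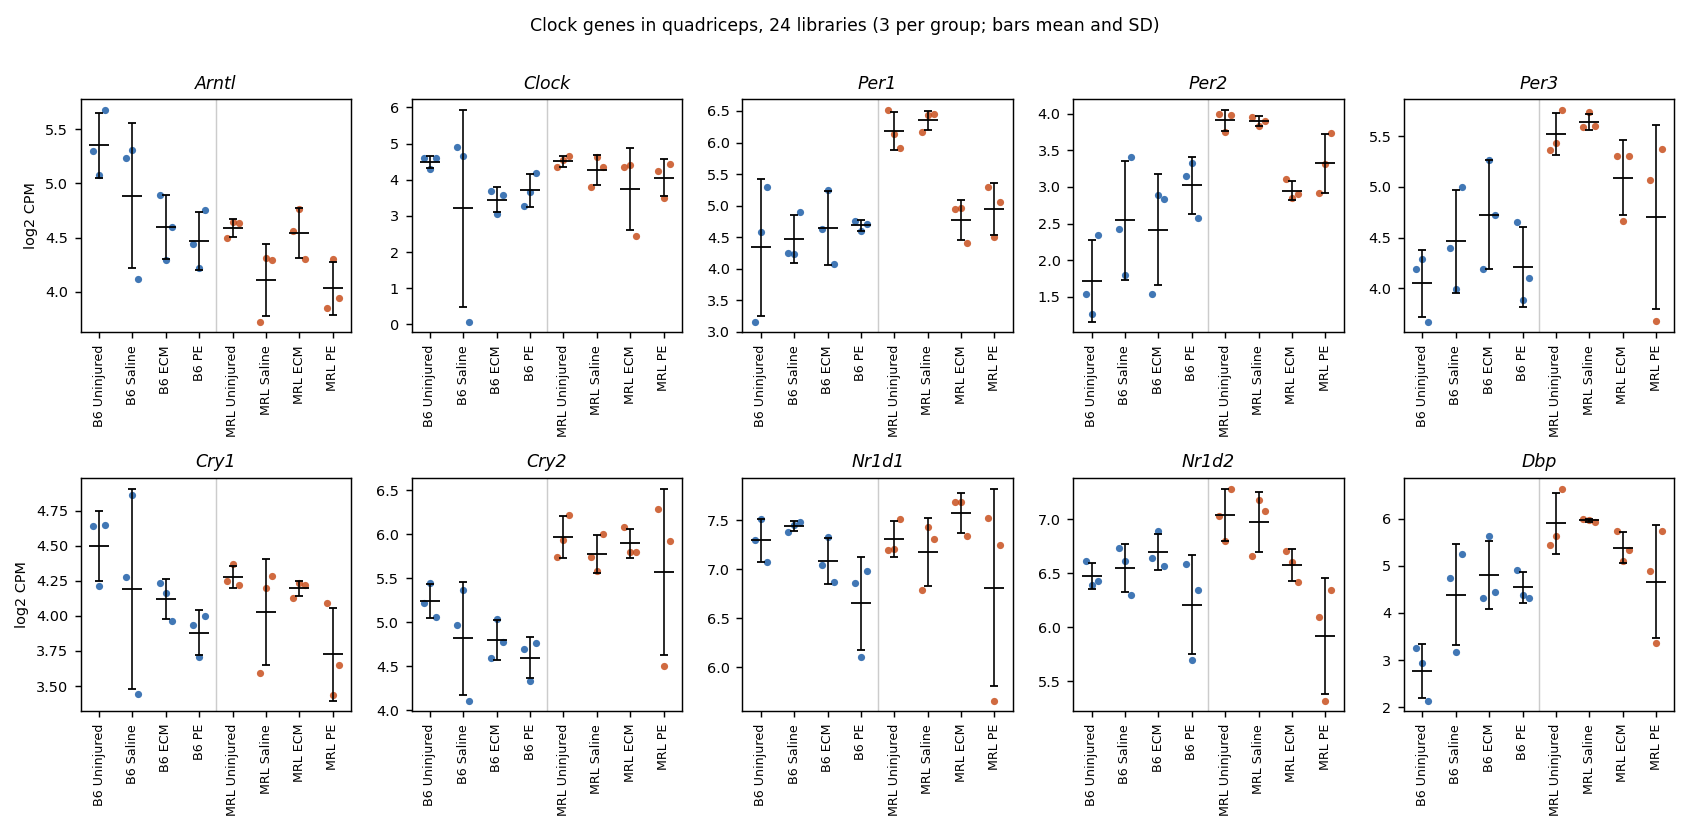
Level of each clock gene (y axis, log2 CPM) in the 8 groups (x axis). Points are libraries (blue B6, orange MRL), and horizontal and vertical bars are the mean and SD of 3 libraries. Uninjured B6 mice have the lowest means of Dbp and Per2 and the highest of Arntl, with some injured B6 libraries within their ranges. Clock of saline-treated B6 replicate 3 stands at 0.07.

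The sheet of the study that lists the libraries gives them 3 sets of first index, with 8 libraries each. All uninjured B6 libraries carried 1 set and all uninjured MRL libraries another. Within no treatment did the strains share a set, so index set and strain cannot be told apart in any of them. ECM- and PE-treated B6 libraries carried a different set from uninjured B6 libraries. ECM-treated MRL libraries carried a different set from uninjured and saline-treated MRL libraries. In these comparisons index set and treatment cannot be told apart. Within the set of the uninjured B6 libraries, Dbp ran from 2.14 to 5.74, and the 3 ECM-treated MRL libraries in that set had 5.74, 5.09 and 5.32. Per2 in those MRL libraries was at 3.10, 2.85 and 2.90, above the 1.27 to 2.35 of the uninjured B6 libraries of the same set. Per1 was at 4.94, 4.96 and 4.40 and overlapped the uninjured B6 libraries. Treatment differs between these groups as well as strain. The same set held saline-treated B6 replicate 3, with Dbp at 5.24 and Per2 at 3.41, and PE-treated MRL replicate 1, with Dbp at 4.89 and Per2 at 2.92. Genes induced by glucocorticoids, a hormone that Per1 answers to, had 1 of 10 members called between uninjured strains (lower in MRL mice), against 2.6% of all genes, with a median difference of -0.10. These 10 genes summed to 839, 1491 and 3708 CPM in uninjured B6 replicates 1, 2 and 3. In uninjured MRL replicates 1, 2 and 3 they summed to 978, 768 and 904 CPM. Of 8 immediate early genes, 0 passed in limma, and 1 had an unadjusted p under 0.05, against 10.9% of all genes, with a median of 0.17. The part of either list in the Per1 difference was not tested.

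After the saline injury Per1 again differed between the strains. It was at 4.25, 4.24 and 4.90 in B6 and at 6.17, 6.44 and 6.45 in MRL mice, 1.89 higher (SE 0.39, limma adjusted p = 0.00714). Per1 was the 1 clock gene of 10 that passed, where 2.51% of all genes did. Per2 was at 2.43, 1.80 and 3.41 in B6 and at 3.96, 3.84 and 3.90 in MRL mice (1.35, limma adjusted p = 0.0765). Dbp was at 4.73, 3.18 and 5.24 in B6 and at 5.99, 5.97 and 5.93 in MRL mice (1.58, limma adjusted p = 0.173). For both genes the 3 MRL libraries agreed closely while those of B6 were far apart. The strains did not overlap for 5 of 10 genes, against 15.2% of all genes.

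Saline-treated B6 replicate 3 stood apart. While the others of its group carried a different set of first index, its index was of the set of the uninjured B6 libraries. Its Clock was at 0.07, against 4.89 and 4.66 in the other libraries of the group and 2.44 or more in every other library of the series. Its Arntl was at 4.11, against 5.23 and 5.31, and its Cry1, a repressor, was at 3.44, against 4.28 and 4.86. Without it, 3 clock genes passed between the strains after saline, where 1.92% of all genes did: Arntl at -1.16 (limma adjusted p = 0.00701), Per1 at 2.10 (limma adjusted p = 0.00896) and Per2 at 1.79 (limma adjusted p = 0.0117).

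With ECM, 0 of 10 clock genes passed between strains in limma, where 2.66% of all genes passed. At an unadjusted p under 0.05 there was 1, against 13.4% of all genes. The largest difference was that of Cry2, a repressor, at 4.59, 5.04 and 4.77 in B6 and at 6.09, 5.80 and 5.79 in MRL mice. These libraries did not overlap, and the difference was 1.10 (SE 0.34, limma adjusted p = 0.114). Dbp was at 4.33, 5.63 and 4.44 in B6 and at 5.74, 5.09 and 5.32 in MRL mice, and these ranges overlapped. Per1 of the strains, at 4.08 to 5.24 and 4.40 to 4.96, overlapped too.

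With PE, 0 of 10 clock genes passed between strains in limma, where 3.35% of all genes passed. Unadjusted, 1 had a p under 0.05, against 19.1% of all genes. Cry2 was again the most different, at 4.69, 4.33 and 4.76 in B6 and at 6.29, 4.50 and 5.92 in MRL mice (0.98, SE 0.34, limma adjusted p = 0.123). The value of 4.50 came from PE-treated MRL replicate 2. In that library macrophage markers, 6 measured, summed to 4197 CPM, against 212 and 218 in the other PE-treated MRL libraries, and muscle fibre markers, 8 measured, summed to 25568 CPM, against 98253 and 95548. Its correlation with the others of its group over all genes was 0.812 and 0.827. Without it 3 of 10 clock genes passed between strains, where 24.6% of all genes did: Cry2 at 1.51 (limma adjusted p = 0.000541), Per3 at 1.01 (limma adjusted p = 0.0266) and Nr1d1 at 0.74 (limma adjusted p = 0.0301). In that comparison the 212 and 218 CPM of macrophage markers stood against 1341 to 4891 CPM in PE-treated B6 mice. Adipocyte markers, 6 measured, summed to 2692 and 1560 CPM in these 2 MRL libraries and to 66.2 to 171 CPM in B6 mice. The part of either in the clock differences was not tested.

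Averaged over the 4 treatments, 6 of 10 clock genes differed between strains, where 15.2% of all genes did and 7.37% were higher in MRL mice. Dbp was 1.35 higher in MRL mice (SE 0.27, limma adjusted p = 0.00175), Per2 1.09 higher (limma adjusted p = 0.000484) and Per1 1.03 higher (limma adjusted p = 0.00101). Cry2 was 0.94 higher (limma adjusted p = 0.000722) and Per3 0.88 higher (limma adjusted p = 0.00263). Arntl was the 1 gene that was lower, at -0.51 (limma adjusted p = 0.0153). Clock, Cry1, Nr1d1 and Nr1d2 did not pass, with differences of 0.43, -0.12, 0.10 and 0.14. The count was 6 in each of 24 fits that left out 1 library, where 11.7% to 32.7% of all genes passed. For Dbp, Arntl and the Per genes the differences were larger in uninjured and saline-treated muscle than with ECM or PE. In the order uninjured, saline, ECM and PE, Dbp was at 3.12, 1.58, 0.58 and 0.12 and Per1 at 1.85, 1.89, 0.12 and 0.26. Cry2 was at 0.72, 0.96, 1.10 and 0.98.

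**Figure D2:**
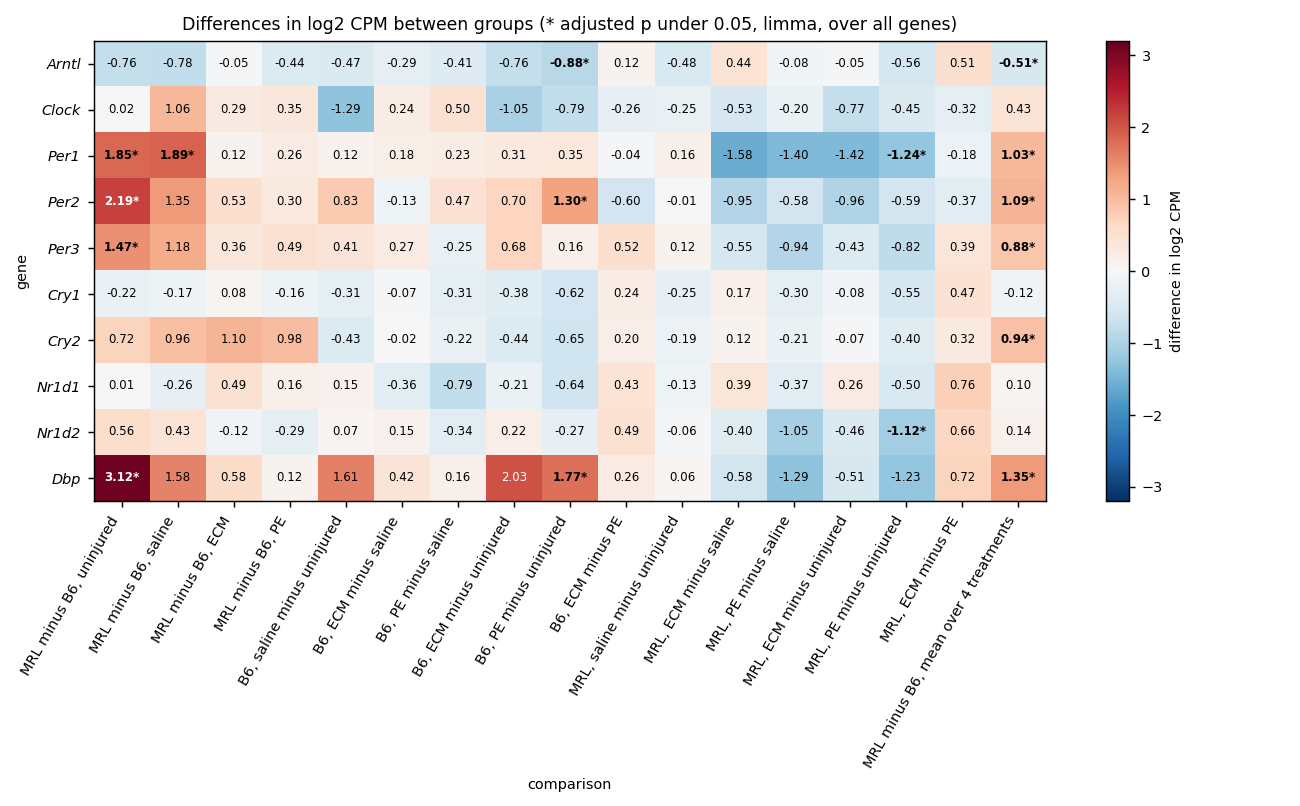
Difference in log2 CPM (colour and number) of each clock gene (rows) in 17 comparisons (columns), with an asterisk where the limma adjusted p over all genes was under 0.05. Red is higher in the group named first, and the strain comparison of uninjured muscle holds 4 asterisks, at 1.47 to 3.12.

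Injury was followed next within each strain. In B6 mice Dbp was above its uninjured level in nearly every injured library. Saline gave 4.73, 3.18 and 5.24 against 3.25, 2.94 and 2.14, so replicate 2 sat within the uninjured range. The difference of 1.61 missed the threshold (SE 0.54, limma adjusted p = 0.303), and 0 clock genes passed, as did 0% of all genes. Unadjusted, 2 had a p under 0.05 in limma, against 12.4% of all genes. Without saline-treated replicate 2, Dbp was 2.21 higher and passed (limma adjusted p = 0.0305), as did 3.22% of all genes. ECM gave 4.33, 5.63 and 4.44, with no overlap, and a difference of 2.03 (SE 0.54, limma adjusted p = 0.0967). Again 0 clock genes passed in limma, where 0.424% of all genes did, and 2 had an unadjusted p under 0.05, against 16.8% of all genes.

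PE against uninjured B6 muscle was the injury comparison of B6 mice in which clock genes passed. Dbp was at 4.92, 4.39 and 4.32 with PE, 1.77 higher (SE 0.54, limma adjusted p = 0.0262). Per2 was at 3.16, 3.32 and 2.58, 1.30 higher (SE 0.38, limma adjusted p = 0.0223). Arntl was at 4.44, 4.22 and 4.75, and fell by 0.88 (SE 0.27, limma adjusted p = 0.0266). None of these PE ranges overlapped the uninjured one. The 3 genes are set against a broad change of the tissue: 24.8% of all genes passed in this comparison, and 51.1% did not overlap, against 7 of the 10 clock genes.

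Macrophage markers summed to 2637, 4891 and 1341 CPM in PE-treated B6 libraries and to 123 to 165 CPM in uninjured ones, and muscle fibre markers to 42115 to 92915 CPM against 114585 to 149351 CPM. Their part in the clock differences was not tested. Without PE-treated B6 replicate 1 or without replicate 2, 0 clock genes passed. Without uninjured B6 replicate 1 or without replicate 3, 1 passed, where 11.9% and 12.1% of all genes did, against 24.8% with all libraries. The differences kept their directions in these fits, at 1.45 to 2.00 for Dbp, 1.08 to 1.61 for Per2 and -1.02 to -0.72 for Arntl. With libraries scaled to equal summed CPM, Arntl was at -0.47 and lost its call (limma adjusted p = 0.15).

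In MRL mice Dbp was at 5.43, 5.63 and 6.63 uninjured and at 5.99, 5.97 and 5.93 after saline, a difference of 0.06 (SE 0.54). After saline 0 clock genes passed in limma, as did 0% of all genes, and 0 had an unadjusted p under 0.05, against 3.1% of all genes. ECM left Per1 at 4.94, 4.96 and 4.40, against 6.51, 6.14 and 5.92 uninjured and 6.17, 6.44 and 6.45 with saline. All ECM libraries were below all of those, by 1.42 and 1.58 on average. Neither difference passed over all genes (limma adjusted p = 1 and 0.886), where 0.0141% and 0.00706% of all genes passed. In each of these comparisons 0 clock genes passed, and 2 had an unadjusted p under 0.05, Per1 and Per2, against 3.8% and 3.55% of all genes. Per2 with ECM was at 3.10, 2.85 and 2.90, against 3.99, 3.75 and 3.99 uninjured.

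PE in MRL mice gave lower means than uninjured muscle for all 10 clock genes, with a median difference of -0.57, against 0.07 over all genes. Nr1d2, a REV-ERB gene, was at 7.03, 6.80 and 7.28 uninjured and at 6.09, 5.32 and 6.34 with PE, and fell by 1.12 (SE 0.24, limma adjusted p = 0.0448). Per1 was at 5.30, 4.50 and 5.05 with PE and fell by 1.24 (SE 0.39, limma adjusted p = 0.0491). These 2 genes passed, where 9.73% of all genes did and 3.78% passed as lower. Replicate 2, with the high macrophage markers, was lowest of its group for Clock, Per1, Per3, Cry1, Cry2, Nr1d1, Nr1d2 and Dbp. Without it 0 clock genes passed, and Nr1d2 was at -0.82 (limma adjusted p = 0.182) and Per1 at -1.02 (limma adjusted p = 0.226). Calls were also lost without uninjured MRL replicate 1 or replicate 3 (0 passed in each). Without uninjured MRL replicate 2, 1 passed, where 7.69% of all genes did. Without PE-treated replicate 3, 4 passed, where 24.2% of all genes did. Fitting replicate number as a block left 0 calls (limma adjusted p = 0.0504 for Nr1d2 and 0.0601 for Per1). With the block 0.0636% of all genes passed, against 9.73% without it.

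The remaining comparisons between injuries gave 0 called clock genes each. In B6 mice the largest differences were Dbp for ECM against saline (0.42), Nr1d1 for PE against saline (-0.79, limma adjusted p = 0.154) and Per2 for ECM against PE (-0.60). In these comparisons 0.0283%, 5.97% and 0.226% of all genes passed in limma. At an unadjusted p under 0.05 there were 0, 1 and 0 clock genes, against 3.99%, 25.2% and 20.6% of all genes. The sign of the Dbp value turned when saline-treated B6 replicate 2 was left out (-0.19). In MRL mice they were Per1 for PE against saline (-1.40, limma adjusted p = 0.107) and Nr1d1 for ECM against PE (0.76, limma adjusted p = 0.154), where 0% of all genes passed. At an unadjusted p under 0.05 there were 4 and 2 clock genes, against 23.3% and 28.4% of all genes.

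Whether differences between treatments were unlike in the strains was tested as an interaction. For PE against uninjured, the effect on Dbp was 3.00 lower in MRL than in B6 mice (SE 0.76, limma adjusted p = 0.277), and for ECM against uninjured it was 2.54 lower (SE 0.76, adjusted p = 1). Per2 gave -1.89 (limma adjusted p = 0.297) and -1.66 (adjusted p = 1). In the 6 interaction comparisons 0 clock genes passed in limma, and between 0% and 0.0212% of all genes did (0.0212% for PE and 0.00706% for ECM against uninjured). At an unadjusted p under 0.05 there were 4 clock genes each for PE and for ECM against uninjured, where 11.7% and 3.62% of all genes were. There was 1 each for PE and for ECM against saline (4.34% and 2.26%), and 0 each for saline against uninjured and for ECM against PE (4.03% and 3.69%). Without PE-treated MRL replicate 2, 2 clock genes passed for PE against uninjured, where 9.56% of all genes did: Dbp at -2.35 (limma adjusted p = 0.0376) and Per2 at -1.88 (limma adjusted p = 0.0483).

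Over all 8 groups, 7 clock genes differed somewhere (limma F-test, adjusted p from 0.00368 for Per1 to 0.0245 for Nr1d2), where 26% of all genes did. Clock, Cry1 and Nr1d1 did not pass. The share of a gene's variance that lay between groups was 75.5% for Per1, 75.4% for Per2 and 72.7% for Dbp. It was 66.4% for both Arntl and Cry2 and 65.9% for both Per3 and Nr1d2. These 7 values were above the upper quartile of all genes, 61.1%. Cry1, at 40.7%, and Nr1d1, at 39.6%, were below the lower quartile of 40.8%, and Clock was at 20.5%.

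Ordered by group mean, uninjured B6 mice held the lowest place for Dbp, Per1, Per2 and Per3 and the highest for Arntl and Cry1. Uninjured or saline-treated MRL mice held the highest place for 7 genes: Dbp, Per1, Per2, Per3, Nr1d2, Clock and Cry2. Neighbours in these orders mostly overlapped: 0 of 7 neighbouring pairs were separate for 7 of the genes and 1 of 7 for Per1, Per2 and Per3. For Per1 the separate neighbours were uninjured MRL and PE-treated MRL, at means of 6.19 ± 0.30 and 4.95 ± 0.41 (SD, n = 3).

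The balance of the activator against the output gene was read as Arntl minus Dbp in each library, a difference of log2 CPM. It was 2.57 ± 0.83 (SD, n = 3) in uninjured B6 muscle and ran from 2.04 to 3.54. In B6 mice with saline it was 0.50 ± 1.63, with ECM -0.21 ± 1.00 and with PE -0.07 ± 0.47. All 3 injured groups thus had lower means than uninjured muscle. In MRL mice it was -1.31 ± 0.60 uninjured, -1.85 ± 0.36 with saline, -0.84 ± 0.45 with ECM and -0.64 ± 1.41 with PE. The 9 MRL libraries without PE lay between -2.27 and -0.33, and all of the uninjured B6 libraries lay above them.

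**Figure D3:**
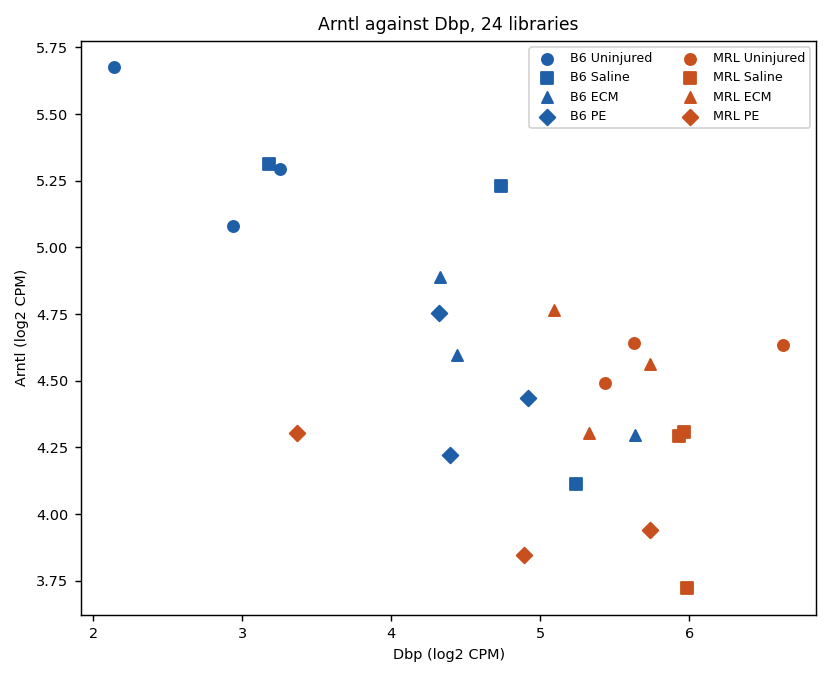
Arntl (y axis, log2 CPM) against Dbp (x axis, log2 CPM) in 24 libraries, with colour for strain and symbol for treatment. The 3 uninjured B6 libraries lie at the top left (Dbp 2.14 to 3.25), and PE-treated MRL replicate 2 lies at the lower left (Dbp 3.37, Arntl 4.31).

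Across the 24 libraries Dbp went with the Per genes, and Arntl went with Cry1. Of 45 pairs of genes, 25 had a Benjamini-Hochberg adjusted p under 0.05 for Pearson's r (permutation test, 2-sided), 21 of them positive and 4 negative. All 25 kept their sign after group means were subtracted. These p-values treat libraries as exchangeable, while the groups differ. Per3 and Dbp were the closest pair (r = 0.905, rho = 0.937, permutation p = 1e-05, the smallest that 100000 permutations can give, adjusted p = 0.00045), and r was 0.885 without the 2 libraries farthest from the median and 0.898 after group means were subtracted. Per2 and Dbp gave r = 0.767 (rho = 0.807, permutation p = 7e-05, adjusted p = 0.00079), which fell to 0.415 after group means were subtracted. Per1 and Per2 gave r = 0.743 (rho = 0.733, permutation p = 5e-05, adjusted p = 0.00075), which fell to 0.313.

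The 4 negative pairs that passed were Arntl with Dbp, Per2 and Per3, and Per2 with Cry1. Arntl and Cry1 gave r = 0.749 (rho = 0.706, permutation p = 2e-05, adjusted p = 0.00045) and 0.681 after group means were subtracted. Arntl and Dbp gave r = -0.675 (rho = -0.594, permutation p = 0.00028, adjusted p = 0.0014), -0.54 without the 2 farthest libraries and -0.578 after group means were subtracted. Without the 3 uninjured B6 libraries r was -0.426 (permutation p = 0.055), so the passing of the threshold rests on those libraries. Arntl and Per2 gave r = -0.70 (permutation p = 0.00012, adjusted p = 0.0011), and Arntl and Per3 gave r = -0.588 (permutation p = 0.0028, adjusted p = 0.0092).

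Nr1d1 and Nr1d2 gave r = 0.671 (rho = 0.249, permutation p = 0.0014, adjusted p = 0.0052). Without the 2 farthest libraries r was 0.091, so this relation rests on those libraries. It was 0.831 after group means were subtracted and 0.693 without the uninjured B6 libraries. Clock and Arntl, the partners, gave r = 0.403 (rho = 0.543, permutation p = 0.05, adjusted p = 0.084).

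**Figure D4:**
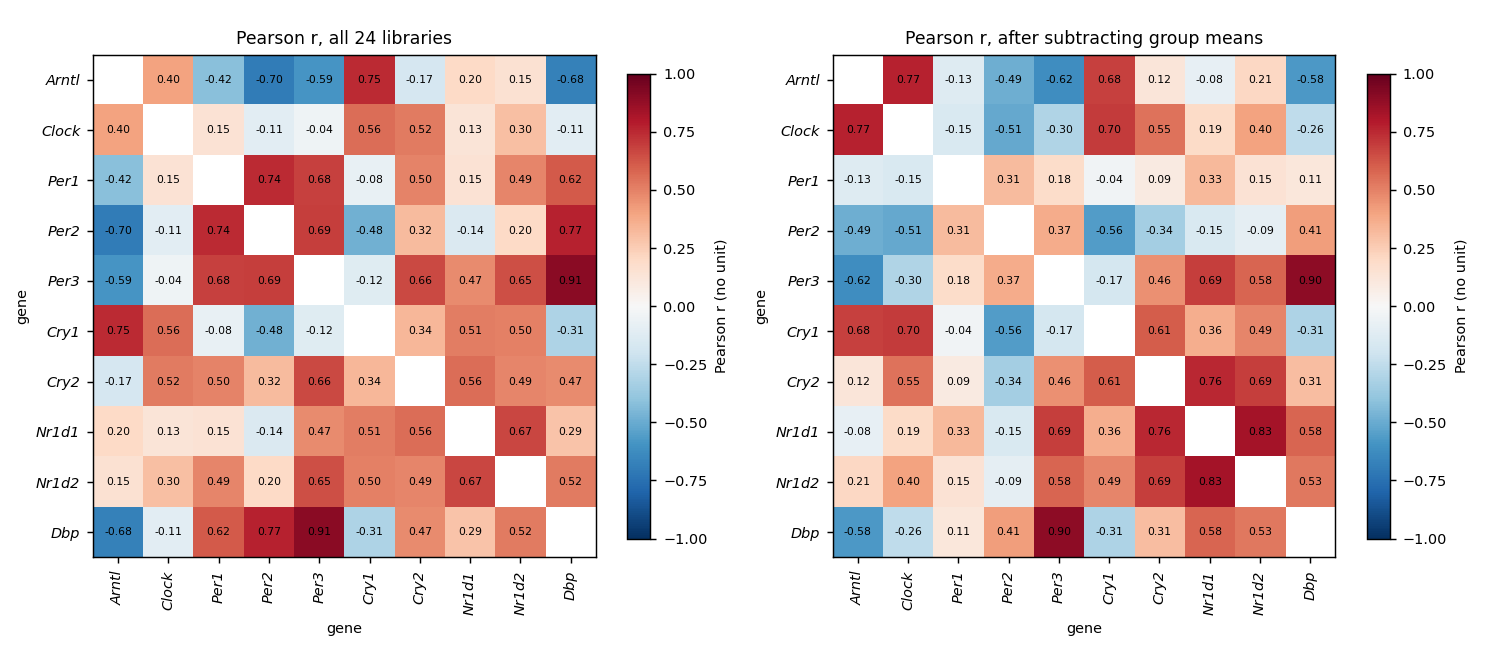
Pearson's r between each pair of clock genes over 24 libraries (left) and after the group means were subtracted (right), with genes on both axes and r from -1 (blue) to 1 (red). Per3 and Dbp hold 0.91 and 0.90, and Arntl is negative against Per1, Per2, Per3 and Dbp in both panels.

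Of 18 further clock genes, 16 were in the matrix. In uninjured muscle Npas2, which can stand in for Clock as the partner of ARNTL, was at 2.40, 2.96 and 3.57 in B6 and at 0.74, 1.17 and 0.22 in MRL mice. It was lower in MRL mice, at -2.27 (SE 0.59, limma adjusted p = 0.0421), the 1 of 16 that passed where 2.6% of all genes did. The call was lost when any 1 of the 6 libraries was left out, with differences of -2.56 to -1.97. Tef and Hlf, relatives of Dbp that bind the same D-box, did not pass between uninjured strains. Tef was at 7.81, 7.69 and 7.47 in B6 and at 8.02, 8.14 and 8.60 in MRL mice. Hlf was at 3.17, 3.61 and 3.26 in B6 and at 2.85, 3.43 and 3.75 in MRL mice, and these overlapped. The median over the 16 genes was 0.20.

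With PE, Hlf was at 1.78, 1.49 and 3.29 in B6 and at 4.19, 3.51 and 4.09 in MRL mice, 1.74 higher (SE 0.40, limma adjusted p = 0.0183), the 1 of 16 that passed between strains there, against 3.35% of all genes. Its call was lost in 4 of 6 fits that left out 1 library, with differences of 1.39 to 2.30, and when only the PE libraries were fitted (limma adjusted p = 0.284). After saline and with ECM 0 of 16 passed between strains in limma, where 2.51% and 2.66% of all genes did. At an unadjusted p under 0.05 there were 5 and 3, against 13.3% and 13.4% of all genes.

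Over the 4 treatments 6 of the 16 passed, where 15.2% of all genes did: Ciart, a repressor of the loop, was 0.94 higher in MRL mice (limma adjusted p = 0.0282), Hlf 0.60 higher (adjusted p = 0.0496), Bhlhe40, an E-box repressor, 0.59 higher (adjusted p = 0.00639) and Btrc, which marks PER proteins for breakdown, 0.25 higher (adjusted p = 0.0175). Npas2 was at -0.90 (adjusted p = 0.0455) and Timeless at -0.51 (adjusted p = 0.00412). Of 24 fits that each left out 1 library, Hlf lost its call in 19, Npas2 in 16 and Ciart in 6, and the other 3 genes in 0. With the replicate block Hlf and Npas2 missed the threshold (limma adjusted p = 0.0501 and 0.0624). With equal summed CPM Btrc was at 0.11 (limma adjusted p = 0.268), and Ciart and Hlf lost their calls (limma adjusted p = 0.0661 and 0.0842).

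PE against uninjured B6 muscle called 3 of 16, a share below the 24.8% of all genes. Nfil3, a repressor that competes with DBP at D-boxes, fell by 1.18 (limma adjusted p = 0.0318), and Hlf fell by 1.16 (limma adjusted p = 0.0423). These calls were lost in 4 and 5 of 6 fits that left out 1 library, and with equal summed CPM (Nfil3 -0.76, limma adjusted p = 0.0639, and Hlf -0.75, limma adjusted p = 0.103). Bhlhe41, an E-box repressor, was at 5.55, 5.32 and 4.80 uninjured and at 6.39, 6.78 and 6.13 with PE, 1.21 higher (SE 0.24, limma adjusted p = 0.00338), and kept its call in all 6 fits that left out 1 library. It was also 0.92 higher with PE than with saline (limma adjusted p = 0.0315), the 1 of 16 in that comparison, where 5.97% of all genes passed. That call was lost in 5 of 6 fits that left out 1 library, with differences of 0.75 to 1.08, and when only these groups were fitted (limma adjusted p = 0.09).

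In MRL mice PE against uninjured called 4 of 16, where 9.73% of all genes passed. Npas2 was at 3.28, 4.52 and 1.44 with PE and was 2.37 higher (SE 0.59, limma adjusted p = 0.0448). Usp2, a ubiquitin protease that the clock drives, was at 7.37, 6.74 and 7.38 uninjured and at 6.31, 4.64 and 6.37 with PE, and fell by 1.39 (limma adjusted p = 0.0448). Rora, which activates Arntl at the sites where the REV-ERB proteins repress it, fell by 0.93 (limma adjusted p = 0.0471), and Btrc fell by 0.46 (limma adjusted p = 0.0474). Each of these 4 calls was lost without PE-treated MRL replicate 2 and with the replicate block (limma adjusted p from 0.0504 to 0.0548). With the block 0.0636% of all genes passed. Btrc was at -0.06 with equal summed CPM (limma adjusted p = 0.77).

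**Figure D5:**
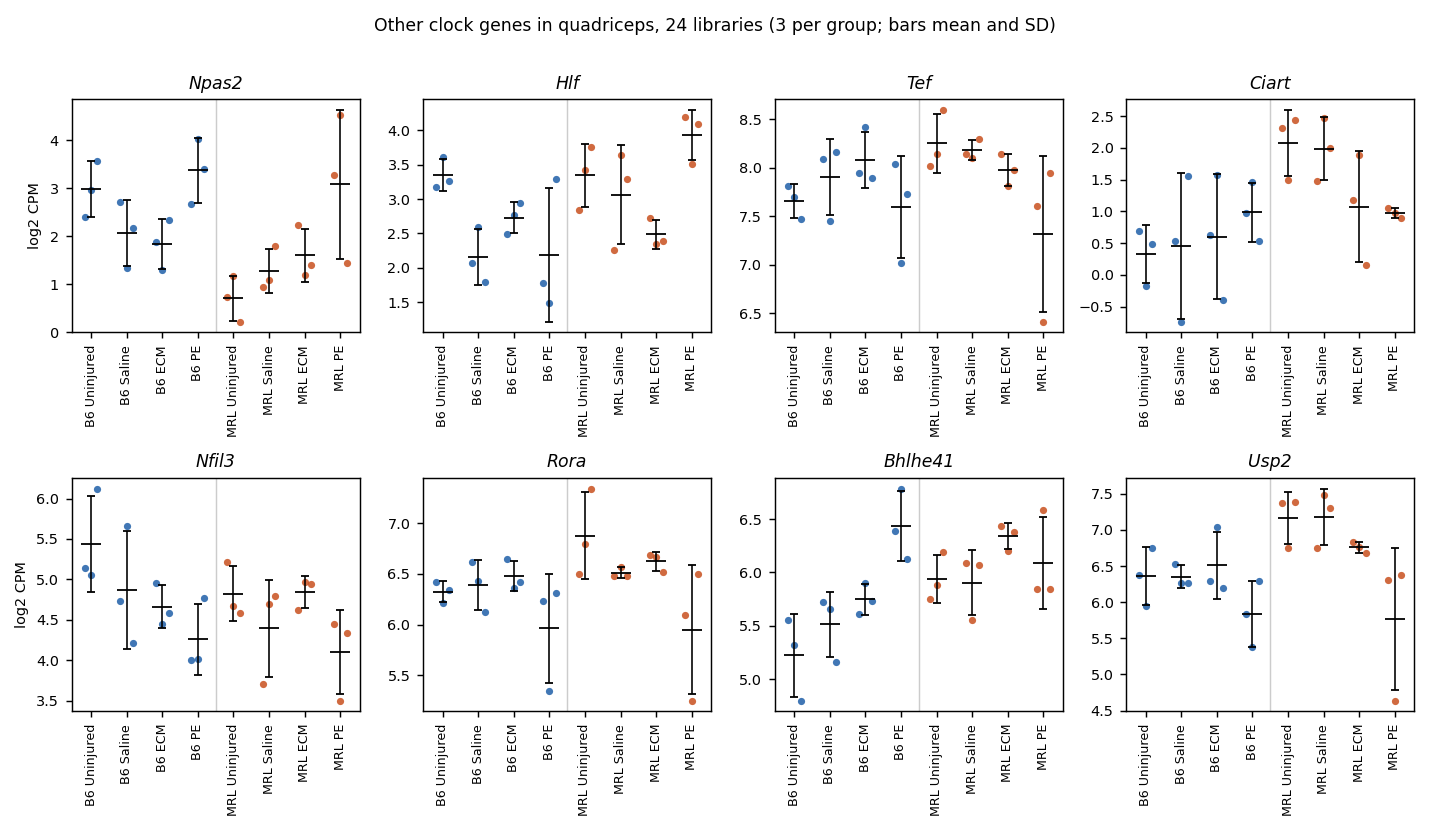
Level of 8 further clock genes (y axis, log2 CPM) in the 8 groups (x axis). Points are libraries (blue B6, orange MRL), and bars are the mean and SD of 3 libraries. Npas2 of uninjured MRL mice lies between 0.22 and 1.17, below all 3 uninjured B6 libraries, and Usp2 of PE-treated MRL replicate 2 lies at 4.64.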

How the data were processed

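Bulk RNA was sequenced from 24 quadriceps samples. The authors quantified transcripts with kallisto against GRCm39 cDNA, summed them to genes with tximport, kept genes over 1 CPM in at least 3 libraries, scaled libraries with TMM and deposited log2 CPM. These log2 values hold a prior count of 2, and no count model was fitted. From the prior, 0.0795 CPM, the mean effective library size was 25149682, and 3 counts correspond to 0.119 CPM. Depth limits low levels, and 3 libraries per group limit every comparison. A row with no symbol was dropped.

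Groups were compared with limma 3.58.1 in R 4.3.3 over all 24 libraries and 14159 genes, with a variance trend, 2-sided tests and Benjamini-Hochberg adjustment per comparison. Genes were called at an adjusted p under 0.05. The procedure was tested on simulated data. An exact permutation test of 3 against 3 libraries cannot go below 0.10 and was not used for single genes. Correlations used 100000 permutations (SciPy 1.17.1), adjusted over 45 pairs. Sequences came from the GRCm39 genome, where 13770 symbols matched GENCODE vM39 (through older symbols where needed). Arntl is Bmal1 there. CPM on the linear scale are 2 to the power of the value, less the prior.

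Named genes were all 10 members, with full statistics for those called and for the largest difference in a comparison, and called genes of the further clock list. Some genes of that list are not reported here and were left out of its counts. Members and lists were chosen with earlier results of these data known. The labels number the replicates but do not pair them. Correlations of residuals of same-numbered libraries were all above 0.1 in 1 of 16 comparisons, PE between strains (0.105, 0.532 and 0.439). There the block changed no call of a clock gene. Tried as alternatives were a filter at a mean log2 CPM of 1, a pseudocount of 1 CPM, equal summed CPM, library weights, a replicate block, fits of the compared groups alone and leaving out each library. The 2 alternatives without uninjured B6 libraries and without 2 libraries together were chosen after seeing the data.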

Additional observations from a re-analysis of the deposited data

How the results depend on the processing

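Counts of called clock genes moved most with library weights, an estimate that did not converge and gave weights from 0.057 (PE-treated MRL replicate 2) to 56.3 (PE-treated B6 replicate 1). Weighted, the strains differed in 7 clock genes after saline, 2 with ECM and 6 with PE, where 41.8%, 17% and 56.5% of all genes passed. In B6 mice the counts were 1 (saline against uninjured), 2 (ECM against saline), 7 (PE against saline), 2 (ECM against uninjured), 8 (PE against uninjured) and 1 (ECM against PE), where 15.7% to 68.1% of all genes passed (68.1% for PE against saline), in MRL mice 2 (PE against saline) and 1 (ECM against PE), where 23.3% and 16.3% did, and for interactions 1 (saline against uninjured), 2 (ECM against saline), 5 (PE against saline), 1 (ECM against uninjured) and 5 (PE against uninjured), where 0.431% to 30.5% did. Fits of the compared groups alone gave 1 between strains with ECM, 2 for ECM and 5 for PE against uninjured B6 muscle, where 2.73%, 6.31% and 29.9% of all genes passed, and 0 for PE against uninjured MRL muscle, where 0% did. That last count was 1 with equal summed CPM, which moved library medians by -0.32 to 0.46, and 0 with the replicate block. In these settings 14.7% and 0.0636% of all genes passed. The block changed no other count by over 1.5 times. The r of Arntl and Dbp was -0.426 without uninjured B6 libraries. The cause of these moves was not tested.

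Leaving out 1 library gave 2 to 3 called clock genes between uninjured strains, 1 to 3 after saline and 0 to 3 with PE, 0 to 1 for saline and 0 to 3 for PE against uninjured B6 muscle, 0 to 4 for PE against uninjured MRL muscle, 0 to 1 for PE against saline and for ECM against PE in MRL mice, and 0 to 2 for the interaction of PE against uninjured. The share of all genes that passed moved too, at 1.58% to 2.01% between uninjured strains and 1.62% to 4.33% after saline. At the highest count it was 24.6% with PE between strains, and 24.3% and 24.2% for PE against uninjured B6 and MRL muscle. It was 3.22% there for saline against uninjured B6 muscle, 12.3% for ECM against PE in MRL mice and 9.56% for the interaction. The count averaged over treatments was 6 throughout, where 11.7% to 32.7% of all genes passed, and that over all groups 6 to 8. Of single differences, Dbp for ECM against saline in B6 mice ran from -0.19 to 0.84 when 1 library was left out and turned negative without ECM-treated B6 replicate 2 (-0.00060) or saline-treated B6 replicate 2 (-0.19). Its interaction for ECM against PE ran from -0.19, without PE-treated MRL replicate 2, to 1.00. Depth was not the limit for the 10 genes, whose lowest value, 0.07 for Clock, is above 3 counts.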

Other observations

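Genes whose levels went most closely with Dbp or Arntl over the 24 libraries were looked up among the other genes, as a description without a test. Predicted genes, clones, pseudogenes and mitochondrial genes were first left out by symbol. Highest with Dbp were Nfatc2 (r = 0.823), Crybb1 (r = 0.821), Haus4 (r = 0.819), Arhgef37 (r = 0.818), Cep63 (r = 0.809) and Iqcc (r = 0.791). After group means were subtracted Cep63 was at 0.879 and the other 5 were between 0.511 and 0.579. Lowest with Dbp were Copa (r = -0.839), Wtap (r = -0.808), Gpr125 (r = -0.795), Aqr (r = -0.788), Hist1h4m (r = -0.781) and Pla2g5 (r = -0.772). Highest with Arntl were Eif2ak1 (r = 0.833), Golga5 (r = 0.827), Otud3 (r = 0.817), Asrgl1 (r = 0.817), Unc5a (r = 0.809) and Nipal3 (r = 0.809), and lowest were Mmel1 (r = -0.782), Cfap36 (r = -0.779), Arsg (r = -0.776), Srsf2 (r = -0.774), Haus4 (r = -0.761) and Pcgf2 (r = -0.758). Haus4 stood in the lists of both genes, with opposite sign. The libraries share groups and scaling, and these are the extremes of the genes kept by symbol out of 14149.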
